A study of Mus musculus with 4 samples.

Results

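The cells deposited under the cell type name Dendritic were 63 of 12648 non-malignant cells and of 31611 cells in all from 4 mouse sarcomas, and they were taken by that name alone. All tumors were hind limb sarcoma allografts. The labels give the same genotype, which includes Trp53flox/flox, conditional alleles that lose Trp53 after recombination, and the background 129/SvJae for all 4. Whether the host, from which non-malignant cells would come, carried these alleles is not given in the sources used here. Vehicle mice received PBS by intraperitoneal injection. Digoxin mice received 2 mg/kg digoxin, a cardiac glycoside that blocks the sodium pump, prepared in DMSO and diluted in PBS. DMSO is not named for the vehicle, so a part of DMSO cannot be told apart from that of digoxin. Vehicle and digoxin were given every 24 h, tumors were taken after 4 doses, and each group held 2 mice. Age and sex are not given either. Tumors were digested with collagenase, dispase and trypsin, red cells were lysed, and no sort or gate for dendritic cells is described. Single-cell libraries counted the 3′ ends of RNA molecules through unique molecular identifiers (UMIs).

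Dendritic cells take up antigen in tissues, carry it to lymph nodes and present it to T cells. Conventional dendritic cells of type 1 (cDC1) express Xcr1 and Clec9a and are known for presenting antigen of dead cells on MHC class I, and those of type 2 (cDC2) express Cd209a and Clec10a. Either kind, on maturation, raises the chemokine receptor Ccr7 and the actin-bundling protein Fscn1, lowers the receptors used for antigen uptake, and migrates towards the ligands of Ccr7. Plasmacytoid dendritic cells (pDC) carry Siglech and are known for producing type I interferon.

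Vehicle mice gave 18 and 21 Dendritic cells and digoxin mice gave 14 and 10. These cells held 283231, 248298, 203246 and 131433 UMIs in the order vehicle 1, vehicle 2, digoxin 1 and digoxin 2, which is the order of every set of 4 values from here on. The median depth was 16148.5, 11256, 14600 and 10673 UMIs per cell, against 16412 over all 10363 cells deposited as Macrophage. Levels are in UMIs per 1000000 UMIs of the cell (CPM), averaged over the cells of a mouse. A difference between cell types is the mean over the 4 mice of the difference of log2(CPM + 1), with the SD over mice. No test is given for such differences, since cell types were clustered on the same genes. As a measure of the background, 214 of 3589 genes with a mean of at least 50 CPM in either type (5.96%) were at least 4-fold higher in Dendritic cells than in macrophages in all 4 mice. At least 4-fold lower were 231 (6.44%), and the median over all 3589 genes was -0.33.

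Some libraries and cells stood apart. Vehicle 2 differed from the others in sex-linked transcripts: Xist, the X inactivation RNA, was at 611, 0, 489 and 864 CPM, and the Y-linked Ddx3y was at 0, 61.7, 0 and 0 CPM. Of the 63 cells, 5 carried at least 4 of 9 T cell markers (3, 0, 2 and 0 cells) and 7 carried at least 5 of 15 macrophage markers (3, 2, 0 and 2 cells). These 12 cells were kept, and results that rest on them are also given for the other 51. Scrublet, which scores likely doublets, marked 1446 of 31611 cells but 0 of the 63. The 5 and 7 cells had median depths of 20210 and 24265 UMIs, against 11999 in the other 51. Why they carry these markers was not tested further. Of 113 cell barcodes that libraries shared, 1 belonged to a Dendritic cell, and its partner was a malignant cell.

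The label was checked first against Flt3, Ccr7, Xcr1 and Clec9a. Ccr7 and Flt3 were present in most cells, and Xcr1 and Clec9a were near 0. Ccr7 (chromosome 11, 99144199 to 99155077) was at 2436, 3627, 2918 and 3102 CPM in Dendritic cells and at 5.22, 4.28, 5.69 and 3.24 CPM in macrophages, a difference of 9.08 ± 0.46 (SD, n = 4). All 63 cells had a Ccr7 UMI, against 162 of 10363 macrophages (1.56%). With every cell thinned to 5000 UMIs, which left out 1 Dendritic cell and 68 macrophages, the shares were 96.8% and 0.787%. Flt3 (chromosome 5, 147330741 to 147400489), the receptor for the growth factor that dendritic cell precursors depend on, was at 147, 188, 280 and 204 CPM, a difference of 6.37 ± 0.41 (SD, n = 4). Flt3 had a UMI in 51 cells.

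Xcr1 (chromosome 9, 123852315 to 123862029), which binds the chemokine Xcl1, was at 6.53, 3.19, 2.67 and 0 CPM and had 5 UMIs in 3 cells. Clec9a (chromosome 6, 129408862 to 129424764), which binds actin exposed by dead cells, was at 9.55, 6.15, 18.7 and 8.14 CPM, with 13 UMIs in 8 cells. The 3 cells with Xcr1 all had Clec9a as well. Macrophages, which should lack both, had a UMI of each in 49 of 10363 cells (0.473%). Cd209a, a lectin of cDC2, and Siglech were found in 0 of 63 cells, which allows up to 4.76% of such cells with a UMI (3 cells of 63, counting error only). A cell can carry a gene without a UMI of it. For scale, Cd209a had a UMI in 37 of 182 cells deposited as Microglia, at a mean of 34.4 CPM. Whether the rest of those cells carry it is not known. Intervals and limits here cover counting error only.

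Each cell was then assigned to the list, of 4 lists of 8 genes, of which it carried the most. All 63 cells fell to the mature migratory list (Ccr7, Fscn1, Ccl22, Il4i1, Cacnb3, Socs2, Relb and Tmem123), and none came within 1 gene of another list. They carried 6 to 8 of its genes, and 47 carried all 8. A median of 1 cDC1 gene of 8, 2 cDC2 genes of 7 measured and 1 pDC gene of 8 was found per cell. At least 5 mature migratory genes were found in 63 of 63 Dendritic cells (exact 95% interval 94.3% to 100%) and in 24 of 10363 macrophages (0.232%). The count is a range of a score and not a cell type. The lists were chosen with earlier results of these data known. Mature migratory genes summed to 9347 to 10459 CPM per mouse, against at most 492 CPM for the cDC1, cDC2 or pDC genes. A count of detected genes could hardly favor another list, so the assignment describes these cells and tests nothing. Several genes of the mature migratory list are not specific to dendritic cells: 8.65% of cells deposited as Epithelial and 14.3% of those deposited as Fibroblast, at higher depth, carried 5 or more, with Ccr7 in 2 of 347 and 0 of 203 of them. By these lists, all 63 were Ccr7-positive cells with mature migratory genes, and none carried as many cDC1, cDC2 or pDC genes.

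**Figure D1:**
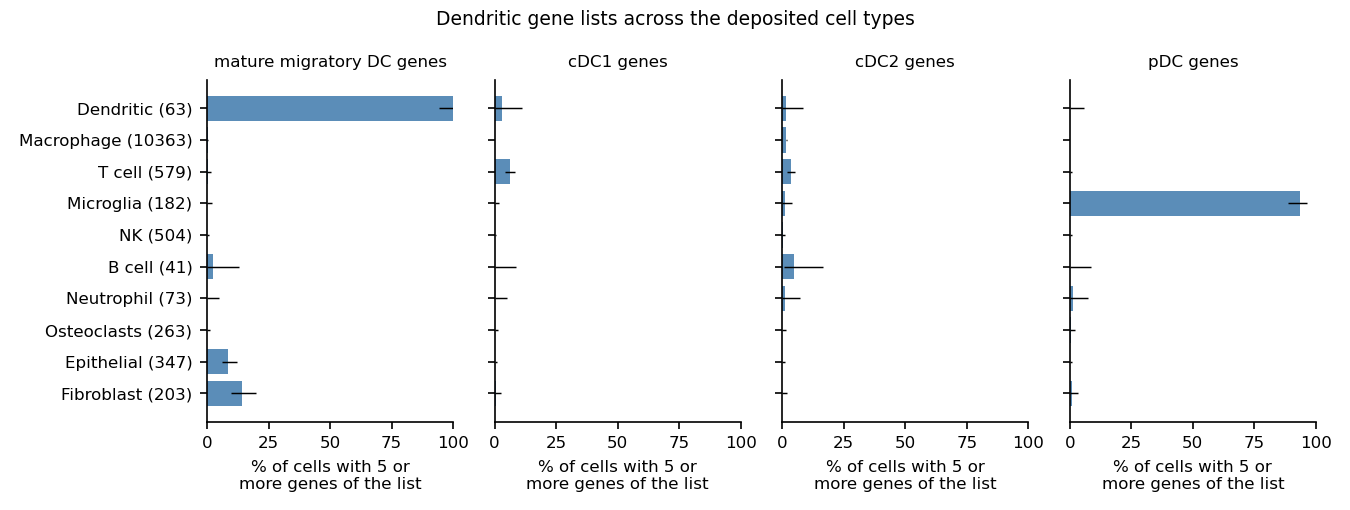
Share of cells (percent, bars from 0) of each deposited type that carried at least 5 genes of each of the 4 lists, with exact 95% binomial intervals and the number of cells in parentheses. All 63 Dendritic cells passed for the mature migratory list, and 2, 1 and 0 of them passed for the cDC1, cDC2 and pDC lists.

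All 8 mature migratory genes were higher in Dendritic cells than in macrophages in all 4 mice, as were 27.2% of the 3589 genes, and the median difference was 7.33. Fscn1 (chromosome 5, 142960355 to 142973189) was at 1392, 1636, 1611 and 1752 CPM, a difference of 7.29 ± 0.25 (SD, n = 4), and was found in 61 cells. Ccl22 (chromosome 8, 94745684 to 94751388), a chemokine that attracts T cells through Ccr4, was at 1553, 1738, 1510 and 1008 CPM against at most 3.02 CPM in macrophages. Cacnb3 (chromosome 15, 98628436 to 98644536), a calcium channel subunit, was at 561, 571, 919 and 828 CPM, a difference of 8.29 ± 0.51 (SD, n = 4). Il4i1, a secreted amino acid oxidase, was at 659, 372, 442 and 504 CPM. Relb, the NF-kB subunit of dendritic cell maturation, was at 662, 548, 646 and 644 CPM, and its 4 values lay close together. Socs2, an inhibitor of cytokine signaling, and Tmem123 differed by 5.50 and 4.14.

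The promoters of Cacnb3 and of Il12b, described below, are shown because both genes were nearly absent from macrophages. Each is 250 bases upstream of a RefSeq start on the plus strand of GRCm38.p6, printed 5′ to 3′. The Cacnb3 window lies within the annotated span of that gene, before an internal start.
Il12b, chr11:44399813-44400062: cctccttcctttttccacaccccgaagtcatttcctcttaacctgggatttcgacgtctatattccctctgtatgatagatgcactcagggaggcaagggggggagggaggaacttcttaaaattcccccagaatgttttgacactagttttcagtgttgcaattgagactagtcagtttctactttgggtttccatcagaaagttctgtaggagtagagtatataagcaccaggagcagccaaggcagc
Cacnb3, chr15:98632078-98632327: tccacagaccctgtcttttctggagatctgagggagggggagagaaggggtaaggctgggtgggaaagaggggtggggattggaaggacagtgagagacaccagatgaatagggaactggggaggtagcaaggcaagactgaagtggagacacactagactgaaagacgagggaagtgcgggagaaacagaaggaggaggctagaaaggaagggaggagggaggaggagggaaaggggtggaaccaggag
No letters are in capitals because neither window held any of 5 strings searched on both strands. These were a 10-letter NF-kB string, GGGNNTTTC (NF-kB), a 10-letter ETS-IRF composite string, GAGGAAGT (PU.1) and a 10-letter interferon-stimulated element. They occur in 4.65%, 3.72%, 2.30%, 2.44% and 2.98% of 32851 promoters, and the 9-letter string was added after the first gave no match. The ETS-IRF string and the interferon-stimulated element can overlap. The absence of a match says only that these letters are not in these windows.

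Of 10 genes in a list named shared dendritic genes, 9 were higher than in macrophages in all 4 mice (27.2% over all genes), and Bcl11a was not. The name is loose, since some of the 10 belong to certain kinds only. Zbtb46, a transcription factor of conventional dendritic cells, was at 20.7, 96.6, 94.2 and 95.2 CPM and was found in 28 cells. Vehicle 1 was low for it, and the other 3 mice were alike. Irf8, a transcription factor of cDC1 and pDC development, was at 1151, 994, 1191 and 1276 CPM, a difference of 2.98 ± 0.37 (SD, n = 4). Id2, a regulator that blocks E proteins, differed by 2.34 ± 0.16 and Dpp4, a surface peptidase, by 4.21 ± 0.63 (SD, n = 4). Spib, Kit and Btla were found in 16, 12 and 14 cells.

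Of the 8 cDC1 genes 2, Batf3 and Clec9a, were higher in all 4 mice, near the 27.2% over all genes. Another 2 were lower in all 4 mice (46.2% over all genes). Batf3, a transcription factor that cDC1 need, was at 191, 189, 264 and 232 CPM in 56 cells, a difference of 4.31 ± 0.48 (SD, n = 4). Tlr3, a receptor for double-stranded RNA, was found in 0 cells, Cadm1, an adhesion molecule, in 3, Naaa in 8 and Wdfy4, which is needed for cross-presentation, in 17. Of 7 measured cDC2 genes, Irf4, Ltb and Tnip3 were higher in all 4 mice (27.2% over all genes). Cd209a, Clec10a, Mgl2 and Sirpa were lower in all 4 (46.2%). Of 8 pDC genes none was higher and 5 were lower in all 4 mice (46.2% over all genes). Among the 5 was Tcf4, the factor that specifies pDC, at 58.9, 82.5, 112 and 105 CPM. Of the 8 genes 4 had no UMI in the 63 cells. Such a gene counts as lower wherever macrophages of all 4 mice hold any, as for Cd209a, so these counts say little.

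**Figure D2:**
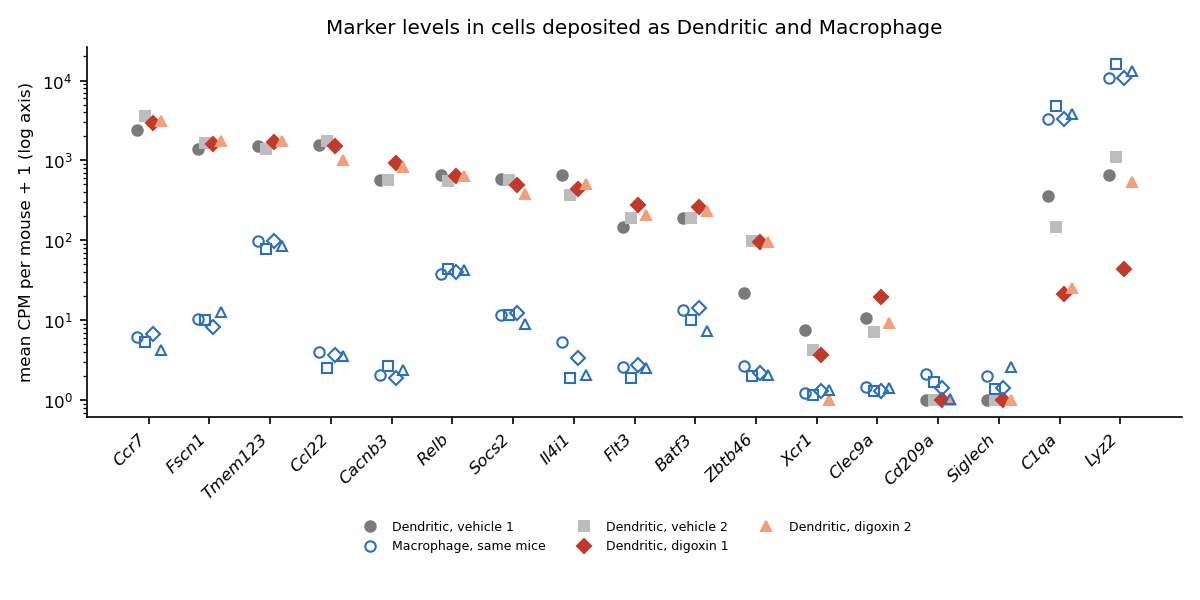
Mean CPM per mouse plus 1 (log axis) of 17 genes in Dendritic cells (filled symbols, by mouse) and in macrophages (open symbols, the same shape for the same mouse). Ccr7 lies between 2436 and 3627 CPM against at most 5.69 CPM in macrophages, Xcr1 and Clec9a lie at most at 18.7 CPM, and C1qa and Lyz2 lie below macrophages.

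The 20 genes with the greatest excess over macrophages, among those with at least 50 CPM and a UMI in at least 10 cells, held 5 of the mature migratory genes. The gene at the top was Serpinb6b, a serine protease inhibitor, at 1352, 987, 1726 and 1368 CPM against 1.05, 0.851, 1.80 and 1.42 CPM (9.21 ± 0.13, SD, n = 4). Its relative Serpinb9, the inhibitor of granzyme B, was at 731, 954, 1141 and 730 CPM (6.60 ± 0.48). Surface proteins among the 20 were Ly75, an endocytic receptor also called DEC-205 (7.44 ± 0.37, 53 cells), Cd200, an inhibitory ligand (6.62 ± 0.28, 51 cells), Psca (6.69, 20 cells) and Spint2, a membrane protease inhibitor (7.16, 58 cells). Bcl2l14 (8.18), Nudt17 (7.11), Strip2 (7.10), Mreg (6.75), the actin-severing protein gene Scin (6.58) and the transcripts Gm13546 (8.23) and Gm47662 (6.87) made up the rest with Il12b and Ccl5. Of these 20, Psca was found in the fewest cells. Serpinb6b and Serpinb9 belong to a family with close copies, so reads may be split among them.

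The 10 genes furthest below macrophages were Hmox1, Chil3, Arg1, Ccl12, Pf4, Ly6c2, Clec4e, Ccl3, Saa3 and Hal, with differences from -6.90 to -5.98. Without the 12 cells several lay further below, with Hmox1 at -8.39, Ccl12 at -9.00 and Pf4 at -8.84, where most mice were at 0 and the size depends on the pseudocount. Arg1 was then at 0 in all 4 mice, and 318 genes in place of 231 were at least 4-fold lower. Hmox1, the heme-degrading enzyme, was at 2.29, 18.9, 3.53 and 0 CPM against 506, 267, 781 and 572 CPM. Arg1, which breaks down arginine, was at 98.5, 0, 0 and 13.2 CPM against 772, 264, 1084 and 574 CPM. All 15 macrophage markers and all 7 monocyte markers were lower in all 4 mice, against 46.2% of the 3589 genes, with medians of -4.93 and -5.10. The macrophage markers summed to 2946, 2385, 296 and 1126 CPM in Dendritic cells and to 26253 to 42147 CPM in macrophages. None of the 15 was at 0 in all 4 mice. Adgre1, Mrc1, Mertk and Trem2 were at 0 in digoxin 1, and Fcgr1 in digoxin 2. T cell markers summed to 276, 3.84, 262 and 0 CPM.

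List counts against macrophages cover every measured member, low ones included, while the shares over all genes, 27.2% higher and 46.2% lower in all 4 mice, are over the 3589 with at least 50 CPM in either type. Of 15 MHC class I and cross-presentation genes 10 were higher than in macrophages in all 4 mice (27.2% over all genes), with a median of 1.18. They included the heavy chains H2-K1 (1.36 ± 0.41) and H2-D1 (0.98 ± 0.20), the light chain B2m (1.18 ± 0.22), the immunoproteasome subunits Psmb8 (1.73 ± 0.21) and Psmb9 (2.02 ± 0.17) and the peptide transporter subunit Tap1 (1.56 ± 0.31). Rab32 and Cybb, a subunit of the phagocyte oxidase, were lower in all 4 mice. Of 10 MHC class II genes 2 were higher and 3 lower in all 4 mice, with a median of 0.26, and neither share exceeded that over all genes (27.2% and 46.2%). H2-Aa was at 3439, 3603, 2637 and 4049 CPM against 2934, 2842, 2927 and 2040 CPM, which overlapped. The inhibitory peptide-loading subunit gene H2-Oa was higher (2.85 ± 0.41), and H2-DMa, a subunit of the loading chaperone (303, 170, 226 and 158 CPM against 324 to 462 CPM), and the class II transactivator Ciita (-1.38 ± 1.11) were lower.

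Among 14 costimulation and checkpoint genes, 8 were higher than in macrophages in all 4 mice (27.2% over all genes) and 3 lower (46.2%). The ligands of Cd28 and Ctla4, Cd80 and Cd86, differed by 2.27 ± 1.02 and 1.40 ± 0.37, and Cd40, through which T helper cells act, by 3.33 ± 0.32. Cd83, a maturation marker, was at 789, 898, 587 and 568 CPM (1.54 ± 0.22). The inhibitory ligands of Pdcd1 were higher as well, Cd274 at 336, 398, 272 and 360 CPM (3.44 ± 1.11) and Pdcd1lg2 in 29 cells (4.48 ± 0.79). Havcr2 (-3.92), Vsir (-2.78) and Lgals9 (-4.39) were lower in all 4 mice. Tnfsf4, the ligand of OX40, was at 81.3, 66.4, 28.6 and 0 CPM in 16 cells, against at most 0.210 CPM in macrophages.

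Il12b (chromosome 11, 44400063 to 44414677), the subunit that interleukins 12 and 23 share, was at 777, 751, 414 and 357 CPM against at most 0.222 CPM in macrophages (8.95 ± 0.51, SD, n = 4). It was found in 32 of 63 cells and in 0.106% of macrophages. Its partners Il12a and Il23a were found in 0 of 63 cells. One cell held 298 of the 698 Il12b UMIs (42.7%). Il15 and its receptor chain Il15ra, which presents it to lymphocytes, were both higher than in macrophages in all 4 mice (2.60 ± 0.26 and 4.68 ± 0.43), and Il15ra was at 153, 124, 284 and 217 CPM. Tnf (-4.21), Il10 (-2.61), Il18 (-2.85) and Tgfb1 (-1.85) were lower in all 4 mice, and Il1b was at 1086, 1327, 920 and 1420 CPM, which overlapped the macrophages. Of 13 measured cytokine genes 4 were higher and 5 lower in all 4 mice, near the 27.2% and 46.2% over all genes.

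Of 12 chemokine ligands 4 were higher in all 4 mice (Ccl5, Ccl17, Ccl22 and Cxcl16) and 7 were lower (27.2% and 46.2% over all genes). Ccl5, a chemokine for T cells and monocytes, was at 14310, 16664, 10185 and 9756 CPM against 119, 121, 53.4 and 95.3 CPM, a difference of 7.05 ± 0.38 (SD, n = 4). Ccl17, another ligand of Ccr4, was at 1071, 674, 624 and 1718 CPM in 33 cells. Cxcl16, the ligand of Cxcr6, was at 765, 921, 1195 and 984 CPM (1.73 ± 0.33). Ccl2, Ccl3, Ccl4, Ccl6, Ccl9, Cxcl2 and Cxcl10 were the 7 lower ones. Of 10 receptors, Ccr7 and Ccr6 were higher in all 4 mice and 5 lower, neither share far from the 27.2% and 46.2% over all genes, and Ccr1, Ccr2, Cx3cr1 and Cxcr4 were among the lower ones.

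Genes for sensing microbes were low. Of 10 measured pattern recognition genes none was higher and 9 were lower in all 4 mice (46.2% over all genes), with a median of -2.96. Of the 10 genes 4 had no UMI in the 63 cells, which counts as lower wherever macrophages hold any. Tlr4, the receptor for endotoxin, was found in 0 of 63 cells and in 34.8% of macrophages, and Tlr2 differed by -3.58 ± 1.16. Of 12 interferon-stimulated genes 2 were higher and 5 lower in all 4 mice, and neither share exceeded that over all genes (27.2% and 46.2%). Of 9 NF-kB feedback genes 4 were higher in all 4 mice (27.2% over all genes) and 1 lower, the higher ones including Traf1 (3.90 ± 0.59), Nfkb2 (2.17 ± 0.07) and Nfkb1 (1.78 ± 0.38). Of 10 actin and migration genes 6 were higher (27.2% over all genes) and 1 lower, the higher ones including Fscn1, the myosin gene Myo1g (3.64 ± 0.33) and Tmsb4x (1.44 ± 0.05).

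Of 12 cell cycle genes 11 were lower than in macrophages in all 4 mice (46.2% over all genes), and Tubb5 was higher. Mki67 was at 62.2, 9.97, 2.67 and 3.29 CPM against 110 to 158 CPM. Top2a, the topoisomerase of dividing cells, was found in 5 cells (-5.16 ± 1.84).

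Within the 63 cells Ccr7 ranged from 74.9 to 7460 CPM, with a median of 3152, and Ccl5 from 0 to 86601 CPM, with a median of 9595. The genes outside the lists whose level over cells was most like that of Ccr7 were Socs1 (Spearman rho 0.48), Pim1 (0.46), Nr4a3 (0.46), Rel (0.44) and Rab43 (0.42). These had a UMI in 25, 60, 58, 61 and 28 of the 63 cells, with all mice pooled. Ccr7 itself had a rho of -0.29 with the UMIs of the cell, and the part of depth was not tested. For Xcr1, found in 3 cells, no gene could be read in this way. Ccl5 and the summed MHC class II genes ran against each other, with a rho of -0.66 over 63 cells. Within mice rho was -0.82, -0.62, -0.64 and -0.42, and over the 51 cells without markers of other types it was -0.63. Ccl5 ran with Npc2 (0.68), a cholesterol carrier, and Irf8 (0.53). Ccl5 had a rho of -0.29 with the UMIs of the cell, and the class II sum one of 0.30. Cells of a mouse share a library, and all levels are shares of a fixed total. The part of depth in the relation was not tested.

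**Figure D3:**
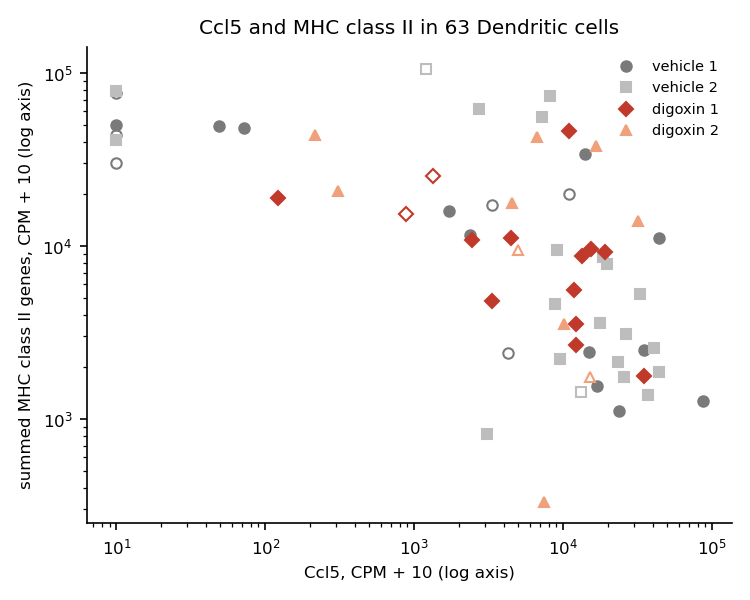
Ccl5 (CPM + 10, log axis) against the sum of 10 MHC class II genes (CPM + 10, log axis) in each of the 63 Dendritic cells, by mouse. Open symbols are the 12 cells with T cell or macrophage markers. Cells with little Ccl5 lie high in class II, and rho over all cells was -0.66.

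Ccl17 and Ccl22 ran together over the 63 cells (rho 0.63), and within the 4 mice rho was 0.50, 0.70, 0.61 and 0.88. Il12b and Ccl17 did not (rho -0.23): 13 cells had a UMI of both, 19 had Il12b alone, 20 had Ccl17 alone and 11 had neither. Of the 8 cells with Clec9a 7 had Il12b, and of the cells without Clec9a 25 had Il12b and 30 did not. The pair was chosen after its values were seen, and the part of depth was not tested. With so few UMIs of Clec9a, this count is a description of these cells alone.

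Dendritic cells made up 0.593% (exact 95% interval 0.352% to 0.936%) and 0.697% (0.432% to 1.06%) of non-malignant cells in vehicle mice. In digoxin mice they made up 0.419% (0.229% to 0.701%) and 0.307% (0.147% to 0.564%). The group means were 0.645% ± 0.0730 and 0.363% ± 0.0789 (SD, n = 2 mice), a digoxin minus vehicle difference of -0.282 percentage points. The digoxin values were the lower pair, but the intervals of single mice overlapped. A two-sided exact permutation test over mice gave p = 0.333, the smallest that 2 against 2 can give. Among all cells the shares were 0.239%, 0.226%, 0.185% and 0.138% (exact permutation p = 0.333). A lower share may come from fewer Dendritic cells or from more of the other cells, which a share cannot tell apart.

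Differences of genes between digoxin and vehicle mice were read from the values of each mouse. A digoxin difference is that of log2(mean CPM + 1), with CPM first averaged over the mice of a group. A single high mouse can therefore weigh heavily in it. Of 1362 genes with a mean of at least 100 CPM and a UMI in at least 20 cells, both digoxin mice lay above both vehicle mice for 292 (21.4%) and below for 192 (14.1%), or 484 in either direction (35.5%). If group names meant nothing, a gene would stand apart in either direction with a probability of 0.333. The 35.5% lies near this, so the count of 484 is not read as a response. With a difference of at least 2-fold as well, 11 were higher (0.808%) and 24 lower (1.76%). The median over all 1362 genes was 0.05. A lone mouse can stand apart more easily. Without vehicle 1, vehicle 2, digoxin 1 or digoxin 2 the 2-fold counts were 39, 37, 45 and 14 higher. In the same order they were 28, 29, 58 and 43 lower, so some counts moved little. Without the highest cell of each mouse, gene by gene, the 292 higher and 192 lower genes became 174 and 194 of 1097. Values below have 10 to 21 cells behind each mouse, and no test was made. Macrophage markers moved with the groups. Of the 15, 8 were lower in both digoxin mice, though 2 alone passed the filter behind the 14.1%, of which 1 was lower. Their sums are given above, and without the 12 cells these sums were 334, 252, 338 and 368 CPM. The 7 monocyte markers summed to 234, 191, 124 and 55.4 CPM, and without the 12 cells to 154, 211, 120 and 52.8 CPM. Of these 7, 0 passed the filter and 1 was lower in both digoxin mice.

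Of the 8 mature migratory genes, which all passed the filter, 2 were higher and 2 lower in both digoxin mice, near the 21.4% and 14.1% over all genes. Cacnb3 was higher (561 and 571 CPM with vehicle, 919 and 828 CPM with digoxin), a difference of 0.63 on the log2 scale. It stayed apart without the 12 cells and without the highest cells. Ccl22 and Socs2 were lower (-0.39 each), and Ccl22 overlapped in both of these alternatives. Ccr7 overlapped between the groups, with means of 3032 ± 842 and 3010 ± 130 CPM (SD, n = 2). Of the 10 shared dendritic genes 4 passed the filter, and Flt3 (0.53), Dpp4 (0.50) and Irf8 (0.20) were higher in both digoxin mice (21.4% over all genes). Flt3 overlapped without the highest cell of each mouse, and Irf8 without the 12 cells, where 2 of the 4 were higher. Of 7 cDC2 genes 5 were lower and 0 higher in both digoxin mice, and the 1 past the filter was lower (14.1% over all genes). They summed to 492, 457, 208 and 173 CPM. Without the 12 cells 2 of 7 were lower, and the sums were 380, 368, 162 and 162 CPM. Of 8 cDC1 genes 1 was higher and 1 lower, and of 8 pDC genes 1 was higher, with 1 and 0 genes past the filter.

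Ccl5 was lower in both digoxin mice, at 10185 and 9756 CPM against 14310 and 16664 CPM, a difference of -0.64. It remained apart without the 12 cells (-0.81) and without the highest cells (-0.70). In macrophages the difference was -0.68. Il12b was lower as well, at 414 and 357 CPM against 777 and 751 CPM (-0.98), but overlapped without the highest cell of each mouse. Of the 10 MHC class II genes 5 were lower and 0 higher in both digoxin mice, and of the 6 past the filter 3 were lower (14.1% over all genes). H2-Ab1, the beta chain of the class II molecule I-A, was at 791 and 1912 CPM against 3313 and 3038 CPM (-1.23). Without the 12 cells 3 of the 10, and 1 of the 5 then past the filter, were lower. The class II sum was then 19025, 19170, 11050 and 22504 CPM, with digoxin 2 above both vehicle mice, and H2-Ab1 stood at 630 and 2257 CPM against 2724 and 2351 CPM, with digoxin 1 the low one. Of the 14 costimulation and checkpoint genes 6 passed the filter, and of these Cd83 (-0.54) and Cd86 (-0.42) were lower and Cd200 (0.40) was higher (14.1% and 21.4% over all genes). Il15ra (0.85) was higher. Cd83 and Cd86 stayed apart in both alternatives, and Il15ra overlapped without the 12 cells. Without the 12 cells 6 costimulation and checkpoint genes passed the filter, 0 higher and 2 lower, so the call of Cd200 was lost.

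**Figure D4:**
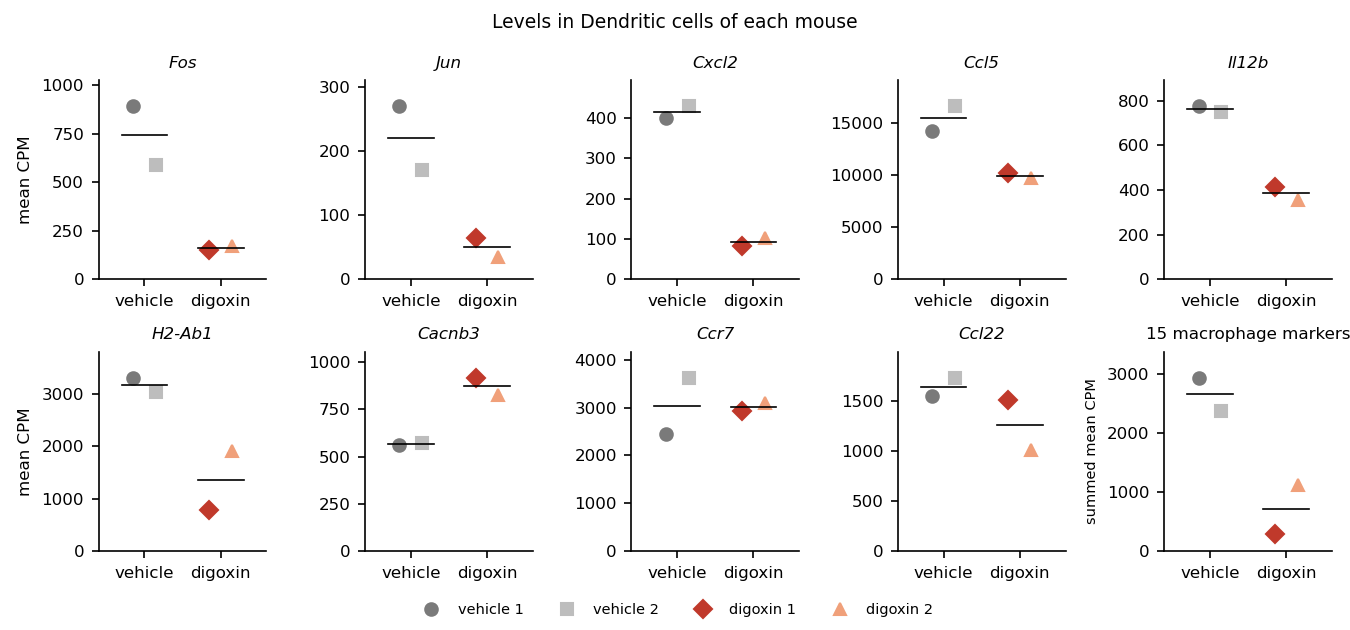
Mean CPM in the Dendritic cells of each mouse for 9 genes, and the summed CPM of 15 macrophage markers, with each group's mean as a line (2 mice per group, axes from 0). Fos, Jun, Cxcl2, Ccl5, Il12b, H2-Ab1 and Ccl22 were lower and Cacnb3 higher in both digoxin mice, and Ccr7 overlapped. The panels were picked, and over all genes 21.4% were higher and 14.1% lower. Cxcl2 overlapped without the 12 cells with markers of other types, Il12b without the highest cell of each mouse, and Ccl22 in both alternatives. The macrophage marker sum was lower in both digoxin mice, but without the 12 cells it was 334, 252, 338 and 368 CPM.

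The immediate early and dissociation genes, which cells raise within minutes of stress and of tissue digestion, were lower in both digoxin mice for 7 of 11 and higher for none. Of the 11, 8 passed the filter, and 6 of these were lower (14.1% over all genes). Fos, a subunit of the AP-1 factor, was at 893 and 590 CPM with vehicle and at 151 and 172 CPM with digoxin (-2.19), and its partner Jun was at 270 and 170 against 65.2 and 34.3 CPM (-2.12). Both digoxin mice lay far below both vehicle mice for each. Without the 12 cells the list counted 4 of 11 lower and 3 of 8 past the filter, Fos differed by -1.54 and Jun by -1.90, and both stayed apart. In macrophages the differences were -0.31 for Fos and -0.77 for Jun. Macrophages held Fos at 1640 to 2339 CPM and Jun at 275 to 705 CPM, above the Dendritic cells of every mouse. Of the 11 genes 9 were lower than in macrophages in all 4 mice (46.2% over all genes). The part of macrophage RNA in the difference between groups was not tested. The list summed to 5320, 4959, 3479 and 3311 CPM, and without the 12 cells to 4197, 4881, 3542 and 3595 CPM.

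The other 3 genes named as lowest with digoxin were Cxcl2, a neutrophil chemokine (-2.14), Ier3 and Ccl2, a monocyte chemokine (-1.70). Cxcl2 was at 400, 429, 83.1 and 103 CPM. Without the 12 cells vehicle 1 stood at 65.4 CPM, and the groups overlapped. Ier3, a stress-induced gene, was at 377, 132, 62.0 and 63.6 CPM and differed by -1.02 without the 12 cells. Ccl2 was at 183, 210, 88.3 and 30.9 CPM, and without the 12 cells its difference turned to 0.91 with overlapping groups. Macrophages carried all 3 at 946 to 5873 CPM, and the part of macrophage RNA in the result was not tested. Of the 12 chemokine ligands 7 were lower and 1 higher in both digoxin mice with all cells, with a median of -0.99. Without the 12 cells 1 was lower and 4 higher, with a median of 0.17. Past the filter, where 14.1% of all genes were lower and 21.4% higher, 4 of 6 were lower and 1 higher with all cells, and 1 of 5 was lower and 1 higher without the 12. NF-kB feedback genes were lower for 4 of 9, and 4 of the 8 past the filter, both with all cells and without the 12 (14.1% over all genes). Among them Nfkbiz was at 200, 166, 59.2 and 76.2 CPM (-1.42) and Birc3 at 172, 155, 107 and 74.2 CPM (-0.84), and both stayed apart in both alternatives.

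The 5 genes named as highest with digoxin were Tpm1, an actin-binding tropomyosin (1.52), Mbp (1.33), Cd1d1, which presents lipids to NKT cells (1.31), Adora2a, an adenosine receptor (1.29), and Il1rn, the interleukin 1 receptor antagonist (1.23). Tpm1 was at 110, 95.7, 140 and 452 CPM, with digoxin 2 far above the rest, and its difference was 0.65 without the highest cells. Mbp was at 80.5, 61.6, 164 and 195 CPM, and Adora2a at 58.6, 96.2, 129 and 252 CPM. Il1rn was at 74.7, 66.3, 136 and 198 CPM. Mbp, Adora2a and Il1rn stayed apart in both alternatives, and Cd1d1 overlapped without the 12 cells. Both alternatives reuse cells of the same mice, so staying apart is no separate evidence. The vehicle means of Mbp, Cd1d1, Adora2a and Il1rn were 71.1, 70.3, 77.4 and 70.5 CPM, each below the minimum mean of the filter. Their means over all mice, 125, 123, 134 and 119 CPM, passed it through the higher digoxin values. For Tpm1 the vehicle mean was 103 CPM, which passed as well. In macrophages Cd1d1 was at 6.77 to 7.60 CPM in the 4 mice.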

How the data were processed

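The authors deposited natural log values, ln(1 + UMIs per 10000 UMIs of the cell), and, for each cell, its UMI count and its cell type. Per the submitters' processing notes, Cell Ranger 3.0.2, Seurat 3.0.2 and the mm10 build were used. With the deposited UMI count of each cell, 100% of the values above 0 turned back to whole UMIs within 0.01. CPM was computed per cell and averaged per mouse (Python 3.11.15, NumPy 2.4.6, pandas 2.3.3). Differences are on the log2(CPM + 1) scale, which understates those of low genes. No count test was run, since the rule for these 63 cells asks for values per mouse. The share of cells was tested over mice with SciPy 1.17.1. Scrublet (scanpy 1.11.5, expected rate 0.06) was run per mouse, and marked cells were kept.

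Named genes are those of 28 lists (255 genes), the 20 highest and 10 lowest against macrophages, the 5 highest and 5 lowest with digoxin, and the 5 most like Ccr7 and Xcr1. Of these lists, neutrophil, NK, B and mast cell markers were lower than in macrophages in all 4 mice for 2 of 6, 5 of 7, 5 of 6 and 3 of 6. Endothelial, Langerhans and fibroblast or tumor cell markers were lower for 4 of 5, 0 of 4 and 2 of 6. The share over all genes was 46.2%. In the same order 1, 5, 4, 4, 3, 0 and 0 members had no UMI in the 63 cells. Such a member counts as lower wherever macrophages hold any, so these counts say little. In the Langerhans list Cd1d1 was higher, and no other gene of these 7 lists was. Npc2, the sex-linked genes and the pairs of genes compared over cells were chosen after their values were seen. The members and lists were chosen with earlier results of these data known. Alternatives were CPM of summed UMIs, other thresholds, each mouse left out, and cells left out as described. Mice of 1 number were not paired: the correlation of their deviations was 0.222 over all non-malignant cells and -0.0456 over Dendritic cells. Promoters and gene positions are from RefSeq tables of GRCm38.p6. Some genes and part of the genotype are not reported here.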

Additional observations from a re-analysis of the deposited data

How the results depend on the processing

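The share of cells in the mature migratory group was 100% in every setting run, which the settings could hardly alter, as no cell carried under 6 of its genes. The difference in share ranged from -0.338 to -0.226 percentage points when 1 mouse was left out. With the replicate block, the share difference was -0.282 and the exact p was 0.5, and mice of 1 number shared only a number. Counts of genes depended more on the settings. The 231 genes at least 4-fold below macrophages became 146 with CPM of summed UMIs, 150 with a pseudocount of 10 and 412 with a minimum mean of 10 CPM, and 237 to 285 when 1 mouse was left out. The 214 above macrophages stayed between 161 and 256. The 11 genes higher with digoxin became 6 with summed UMIs, 7 with a pseudocount of 10, 48 with a minimum mean of 50 CPM and 14 to 45 when 1 mouse was left out. The 24 lower genes became 63 with the minimum of 50 CPM and 28 to 58 when 1 mouse was left out.

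Alternatives chosen after seeing the data left out cells. Without the 12 cells with T cell or macrophage markers, 26 genes were higher with digoxin, and 11 of the 24 lower genes again met all 3 conditions (2-fold, groups apart, the filter applied anew). The groups were apart for 16 of the 24, and Cxcl2 overlapped at -1.38. Ccl2 reversed to 0.91. Without the highest cell of each mouse 4 genes were higher, and 1 of the 11 and 14 of the 24 again met these conditions. A call lost so need not be a smaller difference: the groups stood apart for 9 of the 11 and 21 of the 24, and Mbp, Adora2a and Il1rn were at 1.16, 1.20 and 1.53. The causes were not tested. Of the 30 genes named against macrophages, 28 and 25 moved by less than 1 SD in these 2 alternatives. With 10 to 21 cells and 131433 to 283231 UMIs per mouse, single cells weigh heavily, and genes such as Xcr1, with 5 UMIs, cannot be compared between groups.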

Other observations

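Cells with cDC1 genes were found outside the Dendritic name. Of 579 cells deposited as T cell, 36 carried at least 5 of the 8 cDC1 genes (11, 5, 10 and 10 cells in vehicle 1, vehicle 2, digoxin 1 and digoxin 2). Of these, 32 were among the 35 cells of the deposited sub-cluster Unknown T cell. Xcr1, Clec9a and Naaa are among the 8 genes, so their values describe the choice and support nothing. Xcr1 had a UMI in 31 of the 36 (mean 299 CPM), Clec9a in 33 (139 CPM), Flt3 in 33 (196 CPM) and Naaa in 36 (1876 CPM). Ccr7 had one in 1 and the T cell receptor subunit Cd3e in 3. Among the other 543 T cells Cd3e had a UMI in 507. Their median depths were 20362 and 7346 UMIs per cell. The search for these cells was made after the Dendritic cells were seen to hold few Xcr1 and Clec9a UMIs.

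Cells with pDC genes were found under the name Microglia. Of 182 such cells, 170 carried at least 5 of the 8 pDC genes (52, 36, 56 and 26 cells). Siglech had a UMI in 182 of 182 cells, with a mean of 2449 ± 185 CPM (SD, n = 4 mice), Flt3 in 138 (166 ± 34.9 CPM) and Clec9a in 61. Siglech is also a gene of brain microglia, and no brain tissue is named in the labels.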
